A study of Homo sapiens with 12 samples.

Results

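The 10 genes described here encode autophagy receptors and parts of the core autophagy machinery: SQSTM1, NBR1, OPTN, CALCOCO2, TAX1BP1, CCPG1, MAP1LC3B, GABARAPL1, ULK1 and WIPI1. They were taken by gene symbol, and each matched 1 of the 20030 rows of the expression table. The set was chosen by the function of its genes, with their FPKM values and response to JOA in THP-1 cells already known. JOA (Jiyuan oridonin A) is an ent-kaurene diterpenoid. mRNA-seq was carried out on 12 libraries, with 3 control and 3 JOA-treated libraries for each of MOLM-13 and THP-1, 2 established human acute myeloid leukemia cell lines that both carry MLL rearrangements. The dose was 0.5 μM for MOLM-13 and 2 μM for THP-1, the control cells of each line received DMSO, and incubation lasted 48 h by the sample records. The methods of the study also give 48 h, while a figure legend names a longer incubation, and the conflict could not be settled here. MOLM-13 carries a FLT3 internal tandem duplication and THP-1 has wild-type FLT3. Each line is a single model of its genotype, and the dose changed with the line, so that line and dose cannot be told apart. The records do not say whether the replicates were separate cultures, so p-values measure only the spread between these libraries.

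Macroautophagy encloses cargo in a double membrane that later fuses with the lysosome. The ULK kinase complex starts the process, WIPI proteins read the phosphoinositide PI3P on the growing membrane, and ATG8 proteins of the LC3 and GABARAP families are attached to its lipids. Autophagy receptors join the cargo to these ATG8 proteins. SQSTM1 (p62), NBR1, OPTN, CALCOCO2 (NDP52) and TAX1BP1 bind ubiquitin-tagged cargo, while CCPG1 is a transmembrane receptor for the turnover of endoplasmic reticulum. Receptors are consumed together with their cargo, so protein amounts also depend on autophagic flux, and neither was measured by these libraries.

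Stretches of promoter are shown for CCPG1 and SQSTM1, the members with the largest log2 fold changes in THP-1 cells, and for CALCOCO2, which holds a match to 1 of 3 motifs searched. They come from RefSeq (build GRCh38.p14), are written 5′ to 3′ on the strand of the gene, and lie within the 250 bases before a listed transcription start. Bases inside an annotated exon of any gene were left out. Capitals mark the motif match.
CCPG1 (chr15:55408511-55408547, minus strand): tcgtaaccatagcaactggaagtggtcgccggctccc
SQSTM1 (chr5:179806335-179806392, plus strand, before 1 of 3 listed starts): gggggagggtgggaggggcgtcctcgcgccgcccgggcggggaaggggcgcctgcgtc
CALCOCO2 (chr17:48830785-48830987, plus strand): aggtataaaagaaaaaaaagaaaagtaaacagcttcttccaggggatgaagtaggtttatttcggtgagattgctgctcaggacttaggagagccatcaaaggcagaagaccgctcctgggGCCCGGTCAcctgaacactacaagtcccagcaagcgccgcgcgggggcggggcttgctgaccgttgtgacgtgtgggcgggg

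All 10 genes had promoter windows in the RefSeq table, 15 windows in all, each reaching from 250 bases before a start to 50 bases after it. The antioxidant response element core TGACNNNGC, bound by NRF2, occurred on either strand in 13.3% of all 35116 windows and in 2 of the 15 windows of these genes. The match of CALCOCO2, GCCCGGTCA, began 129 bases before the start and read as the motif on the opposite strand. The match of MAP1LC3B, TGACCAGGC, began 46 bases before the start on the strand of the gene. The 250 bases before that listed start (16:87392086-87392335) lie inside the GENCODE span of the gene (16:87383995-87404779). Of these bases, 0 are shown above. The palindromic E-box CACGTG, read by TFEB and TFE3, was found in 7.26% of all windows, and the composite ATF4 element TGATGNAA in 3.62%. Neither sequence was found in the 15 windows of these genes, which says only that these letters are not in these windows. By base composition, the 250 bases before the start of CCPG1 were 64.8% G or C and those of CALCOCO2 58.8%. The 3 windows of SQSTM1 held 75.2%, 73.6% and 73.6%, that of MAP1LC3B held 74.8%, and the median of all windows was 58.0%.

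Expression was given by the authors as FPKM, a fragment count divided by exon length and by the library's mapped total, which sets genes of different length on a common scale. In each line, the libraries resembled one another closely, with correlations over genes of 0.991 to 0.997 in MOLM-13 and 0.988 to 0.995 in THP-1. Their depths, relative to one another, spanned 0.879 to 1.00 in MOLM-13 and 0.933 to 1.07 in THP-1 by the size of the smallest values, and absolute depth is unknown. All 9 myeloid markers examined had a mean of at least 1 FPKM in all 4 groups. Lists of B cell, erythroid or megakaryocyte, and epithelial or fibroblast markers summed to at most 1.71 FPKM in any library, and of the T or NK cell markers NKG7 (27.5 FPKM in MOLM-13 and 4.77 FPKM in THP-1 controls) and CD3D (2.83 FPKM in MOLM-13 controls) were present while CD3E was at most 0.00975 FPKM as a group mean. All 10 genes passed the minimum mean of 0.1 FPKM in every comparison. A gene was called when its adjusted p from limma, corrected over all genes tested by the method of Benjamini and Hochberg, was under 0.05 and its log2 fold change on the log2(FPKM + 0.1) scale was at least 0.58 in size.

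In untreated MOLM-13 cells, SQSTM1 had the highest level of the set, 32.8 ± 1.24 FPKM (SD, n = 3). TAX1BP1 (23.8 ± 1.15 FPKM) and CALCOCO2 (20.2 ± 2.56 FPKM) followed, and the ranges of these 2 receptors overlapped. MAP1LC3B stood at 16.2 ± 1.42 FPKM, NBR1 at 9.88 ± 0.537 FPKM and CCPG1 at 5.93 ± 0.652 FPKM. Lower still were ULK1 (4.17 ± 0.506 FPKM), GABARAPL1 (2.16 ± 0.180 FPKM), OPTN (1.31 ± 0.0720 FPKM) and WIPI1 (0.452 ± 0.154 FPKM). From SQSTM1 to TAX1BP1 and from CALCOCO2 down, each gene's 3 libraries were separate from those of the next gene.

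Untreated THP-1 cells had another order. TAX1BP1 led with 36.7 ± 1.59 FPKM, above SQSTM1 at 29.2 ± 0.0992 FPKM. CALCOCO2 (11.0 ± 1.79 FPKM), MAP1LC3B (10.7 ± 0.392 FPKM) and CCPG1 (10.7 ± 1.10 FPKM) shared the middle of the order with overlapping ranges, and NBR1 came next at 8.85 ± 0.270 FPKM. OPTN (1.25 ± 0.0560 FPKM) and WIPI1 (1.19 ± 0.201 FPKM) closed it, also with overlapping ranges. The summed level of the 10 genes was close between the lines, with 117 ± 5.21 FPKM in MOLM-13 and 116 ± 2.27 FPKM in THP-1.

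**Figure D1:**
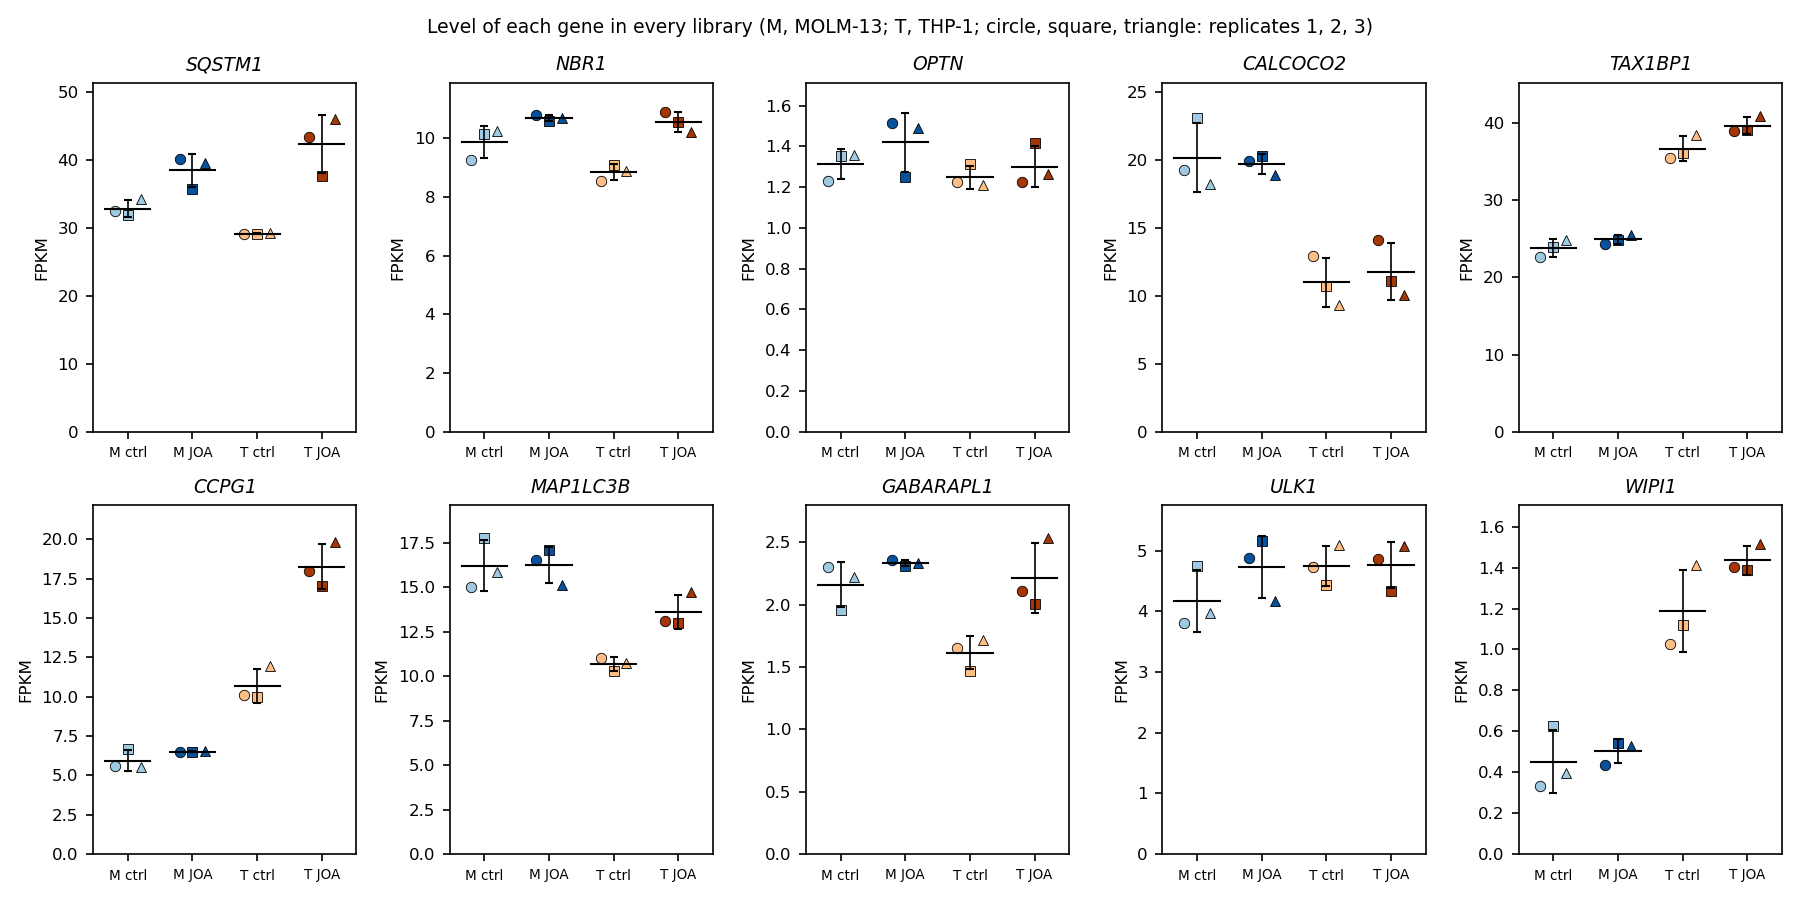
Level of each gene in FPKM (vertical axis, from 0) in the control (ctrl) and JOA libraries of MOLM-13 (M) and THP-1 (T) cells. Symbols are single libraries, circles, squares and triangles for replicates 1, 2 and 3, and bars give the mean and SD of 3 libraries. The JOA libraries of THP-1 lie above their controls for SQSTM1, NBR1, TAX1BP1, CCPG1, MAP1LC3B and GABARAPL1.

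The comparison of the untreated lines gave the levels from which the responses to JOA started. The set was chosen with its FPKM values known, so p-values of these genes, here and in MOLM-13 after JOA, are descriptive. Among the receptors, CCPG1 and TAX1BP1 were higher in THP-1 cells and CALCOCO2 was lower. CCPG1 measured 5.58, 6.68 and 5.53 FPKM in the MOLM-13 controls and 10.1, 9.95 and 11.9 FPKM in the THP-1 controls. The groups did not overlap, and the log2 fold change of 0.84 (SE 0.10) had an adjusted p of 0.000143 by limma. TAX1BP1, a receptor that also restrains inflammatory signalling, measured 22.6, 24.0 and 24.9 FPKM in MOLM-13 and 35.4, 36.1 and 38.5 FPKM in THP-1. Its log2 fold change was 0.62 (SE 0.06, limma adjusted p = 3.97e-05). CALCOCO2, known from the clearance of bacteria and mitochondria, measured 19.2, 23.1 and 18.2 FPKM in MOLM-13 and 12.9, 10.7 and 9.36 FPKM in THP-1. That put THP-1 lower by a log2 fold change of -0.87 (SE 0.13, limma adjusted p = 0.000406).

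Of the core machinery, WIPI1 was higher in THP-1 cells and MAP1LC3B was lower. WIPI1 measured 0.333, 0.626 and 0.396 FPKM in the MOLM-13 controls and 1.03, 1.12 and 1.41 FPKM in the THP-1 controls, a log2 fold change of 1.25 (SE 0.21, limma adjusted p = 0.000945). WIPI1 had the lowest mean level of the set in both untreated lines, and its value depends on the pseudocount: with 1 in place of 0.1 it was 0.59, below CALCOCO2 (-0.82), CCPG1 (0.75) and TAX1BP1 (0.60) in size, and still called. MAP1LC3B, the ATG8 protein whose lipidated form is the usual marker of autophagosomes, measured 15.0, 17.8 and 15.9 FPKM in MOLM-13 and 11.0, 10.3 and 10.8 FPKM in THP-1. Its log2 fold change was -0.59 (SE 0.08, limma adjusted p = 0.000183), just past the required 0.58, and it was -0.53 without replicate 2 of the MOLM-13 controls, -0.57 without replicate 2 of the THP-1 controls and -0.56 with a pseudocount of 1, in which cases the call was lost.

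The remaining 5 genes differed less between the lines. The other ATG8 gene, GABARAPL1, had a log2 fold change of -0.40 (SE 0.11, limma adjusted p = 0.0123), and SQSTM1 one of -0.17 (SE 0.05, limma adjusted p = 0.0206). Both passed the p threshold and missed the fold threshold. NBR1, a receptor that often acts together with SQSTM1, had a log2 fold change of -0.16 (SE 0.07, limma adjusted p = 0.0716), and the 3 THP-1 controls lay below the 3 MOLM-13 controls. ULK1, the kinase that initiates autophagosome formation, gave 0.19 (SE 0.11, limma adjusted p = 0.144). OPTN, a receptor for damaged mitochondria and bacteria, gave -0.07 (SE 0.11, limma adjusted p = 0.591). In all, 5 of the 10 genes were called, 3 higher in THP-1 and 2 lower, against 44% of all 12635 genes tested. An adjusted p under 0.05 at any fold was reached by 7 of the 10, against 71.2% of all genes, and in 8 of the 10 the groups did not overlap, against 74.8%. The median log2 fold change was -0.11 over the 10 genes and 0.06 over all genes. These shares were near the background.

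**Figure D2:**
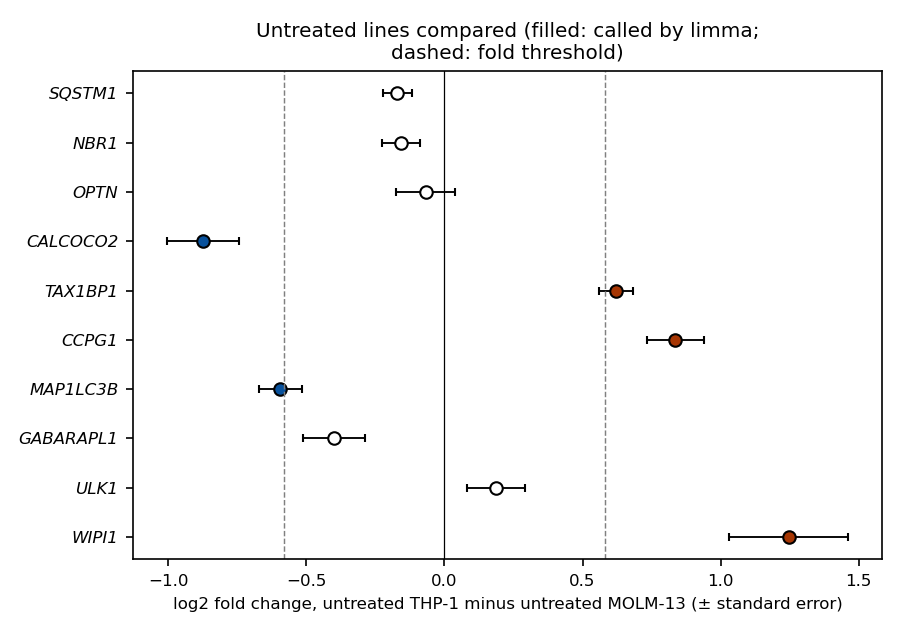
Log2 fold change of each gene between untreated THP-1 and untreated MOLM-13 cells (horizontal axis, on the log2(FPKM + 0.1) scale), with its standard error. Filled points were called, in red where higher in THP-1 and in blue where lower, and dashed lines mark a log2 fold change of 0.58 in either direction. WIPI1, CCPG1 and TAX1BP1 lie to the right, and CALCOCO2 and MAP1LC3B to the left.

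The effect of JOA was then followed in THP-1 cells, the line whose response was known when the genes were proposed, so that the values are a description. CCPG1 had the largest difference of the set. Its level was 10.1, 9.95 and 11.9 FPKM in the controls and 18.0, 17.0 and 19.8 FPKM after JOA. Every JOA library lay above every control, and the mean went from 10.7 ± 1.10 to 18.3 ± 1.42 FPKM, a ratio of 1.71 and a log2 fold change of 0.77 (SE 0.09). Of the 12712 genes tested in THP-1, CCPG1 ranked 64 by log2 fold change. Without each of the 6 libraries in turn, its log2 fold change lay between 0.71 and 0.85.

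SQSTM1 is both a receptor and a scaffold that binds KEAP1, the repressor of NRF2, and its own gene is a target of NRF2. Its level was 29.2, 29.1 and 29.3 FPKM in the THP-1 controls and 43.4, 37.7 and 46.0 FPKM after JOA. The controls were nearly equal, all JOA libraries were higher, and replicate 2 was the lowest of them. The ratio of the means was 1.45 and the log2 fold change 0.53 (SE 0.07), which ranked 204 among the genes tested. NBR1 measured 8.56, 9.09 and 8.90 FPKM in the controls and 10.9, 10.6 and 10.2 FPKM after JOA, without overlap, with a log2 fold change of 0.25 (SE 0.06). TAX1BP1 measured 35.4, 36.1 and 38.5 FPKM in the controls and 39.0, 39.1 and 40.9 FPKM after JOA. These groups were also separate, by a narrow gap, and the log2 fold change was 0.11 (SE 0.05).

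The other 2 ubiquitin-binding receptors had overlapping values. CALCOCO2 went from 12.9, 10.7 and 9.36 FPKM to 14.1, 11.1 and 10.1 FPKM, with a log2 fold change of 0.09 (SE 0.15). In both groups replicate 1 was the highest and replicate 3 the lowest, and within each replicate number the JOA library was the higher one. OPTN stood at 1.22, 1.31 and 1.21 FPKM in the controls and 1.22, 1.41 and 1.26 FPKM after JOA, with a log2 fold change of 0.05 (SE 0.11). Without single libraries, the log2 fold change of CALCOCO2 ranged from -0.04 to 0.21 and that of OPTN from -0.00 to 0.09.

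Both ATG8 genes were higher after JOA in THP-1 cells. MAP1LC3B measured 11.0, 10.3 and 10.8 FPKM in the controls and 13.1, 13.0 and 14.7 FPKM after JOA. GABARAPL1 measured 1.65, 1.47 and 1.72 FPKM in the controls and 2.11, 2.01 and 2.54 FPKM after JOA. In each, the groups were separate and replicate 3 was the highest of the JOA libraries. The log2 fold change was 0.34 (SE 0.07) for MAP1LC3B and 0.43 (SE 0.12) for GABARAPL1, with ratios of the means of 1.27 and 1.37.

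The kinase and the PI3P reader showed smaller differences. ULK1 measured 4.73, 4.43 and 5.09 FPKM in the THP-1 controls and 4.86, 4.34 and 5.08 FPKM after JOA, a log2 fold change of 0.00 (SE 0.09), which was -0.03 when the libraries were rescaled to a common median. WIPI1 measured 1.03, 1.12 and 1.41 FPKM in the controls and 1.40, 1.39 and 1.52 FPKM after JOA, a log2 fold change of 0.27 (SE 0.13). Its control replicate 3 reached into the range of the JOA libraries, so that the groups overlapped.

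In THP-1 cells, the values of 6 of the 10 genes were higher after JOA without overlap, those of 4 overlapped and those of 0 were lower without overlap, where 14.6% of all genes tested were higher without overlap. Of the 10 genes, 1 was called (CCPG1), against 0.134% of all genes. With a replicate block the count was again 1 of 10, against 1.27% of all genes. When any 1 of the 6 libraries was left out, 0 of the 10 genes were called and 0 or 1 genes in all. These counts describe the contrast that was known when the set was proposed. The median log2 fold change was 0.26 over the 10 genes and 0.02 over all genes, of which 56.7% had a value above 0. Compared within the replicate numbers, 9 of the 10 genes were higher after JOA in 3 of 3 pairs, against 29.3% of all genes, and ULK1 in 1 of 3.

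**Figure D3:**
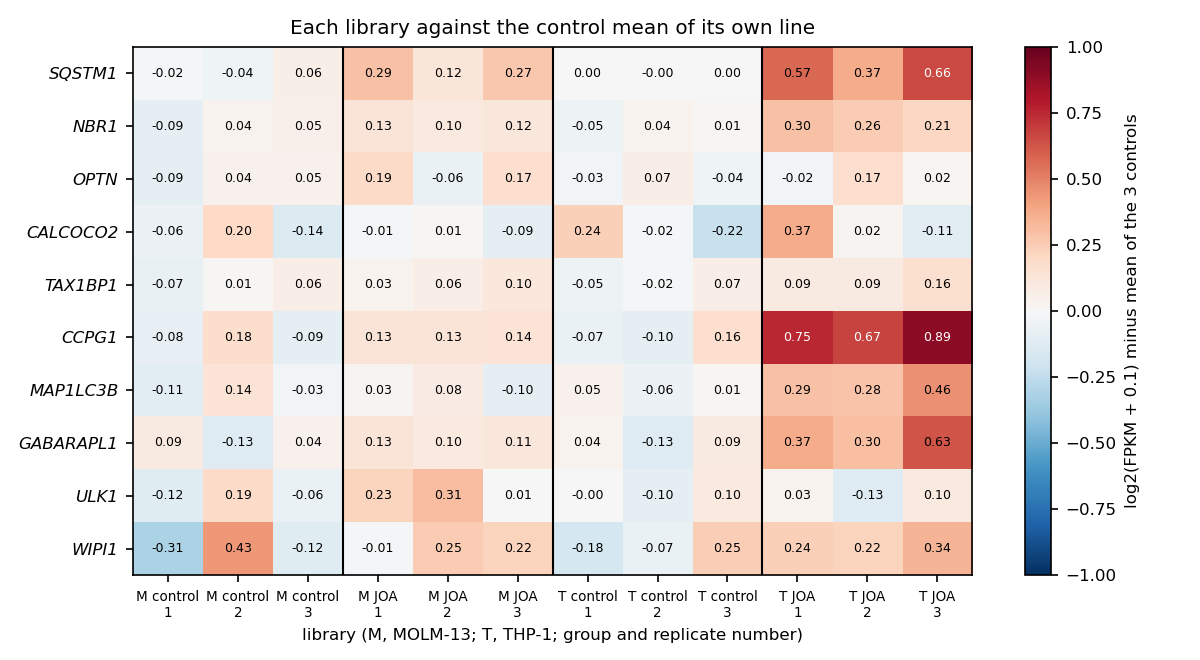
Deviation of each library (columns, with M for MOLM-13 and T for THP-1) from the mean of the 3 controls of its own line, on the log2(FPKM + 0.1) scale, for the 10 genes (rows). Red is higher and blue is lower. The 3 THP-1 JOA libraries are deepest in color for CCPG1 (0.75, 0.67 and 0.89) and SQSTM1 (0.57, 0.37 and 0.66).

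MOLM-13 cells gave the second view of the treatment, at the lower dose. SQSTM1 had the largest log2 fold change of the receptors, and CCPG1 a much smaller one than in THP-1. SQSTM1 measured 32.4, 31.8 and 34.2 FPKM in the controls and 40.2, 35.7 and 39.5 FPKM after JOA. The groups did not overlap, and the JOA library of replicate 2 was the lowest of its group, as it was in THP-1. The mean went from 32.8 ± 1.24 to 38.5 ± 2.42 FPKM, a ratio of 1.17, with a log2 fold change of 0.23 (SE 0.07, limma adjusted p = 1.00). CCPG1 measured 5.58, 6.68 and 5.53 FPKM in the controls and 6.46, 6.47 and 6.52 FPKM after JOA. Control replicate 2 lay above all 3 JOA libraries, which themselves were nearly equal, and the log2 fold change was 0.13 (SE 0.09, limma adjusted p = 1.00). It was 0.22 without that control library, 0.09 without control replicate 1 and 0.08 without control replicate 3.

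Among the other receptors of MOLM-13 cells, NBR1 was separate between groups, with 9.26, 10.1 and 10.2 FPKM in the controls and 10.8, 10.6 and 10.7 FPKM after JOA. Its log2 fold change was 0.11 (SE 0.07). TAX1BP1 gave 0.07 (SE 0.06) from 22.6, 24.0 and 24.9 FPKM to 24.3, 24.9 and 25.6 FPKM. OPTN gave 0.10 (SE 0.12) from 1.23, 1.35 and 1.36 FPKM to 1.52, 1.25 and 1.49 FPKM. For both, the groups overlapped. CALCOCO2 gave -0.03 (SE 0.09) from 19.2, 23.1 and 18.2 FPKM to 20.0, 20.3 and 18.9 FPKM, a value that took either sign when single libraries were left out.

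For the ATG8 genes of MOLM-13, MAP1LC3B had a log2 fold change of 0.00 (SE 0.08), from 15.0, 17.8 and 15.9 FPKM to 16.5, 17.1 and 15.1 FPKM, and its sign turned under rescaling. GABARAPL1 had one of 0.11 (SE 0.09), from 2.30, 1.96 and 2.22 FPKM to 2.36, 2.31 and 2.33 FPKM, with the groups separate by a gap smaller than the SD of the controls. ULK1 gave 0.18 (SE 0.11), from 3.80, 4.75 and 3.97 FPKM to 4.87, 5.16 and 4.17 FPKM. WIPI1 gave 0.16 (SE 0.22), from 0.333, 0.626 and 0.396 FPKM to 0.435, 0.542 and 0.529 FPKM. The controls of ULK1 and WIPI1 both had their highest value in replicate 2, within or above the range after JOA.

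By limma, 0 of the 10 genes were called in MOLM-13, with an adjusted p of 1.00 for each, against 0% of all 11693 genes tested. With a replicate block, for which the count was also 0, their adjusted p-values lay between 0.304 for SQSTM1 and 0.987 for MAP1LC3B. At an unadjusted p under 0.05, 1 of the 10 genes (SQSTM1) passed, and 481 or 4.11% of all genes. The values of 3 of the 10, SQSTM1, NBR1 and GABARAPL1, were higher after JOA without overlap, against 5.1% of all genes. The median log2 fold change was 0.11 over the 10 genes and 0.01 over all genes. Within the replicate numbers, 5 of the 10 were higher after JOA in 3 of 3 pairs, against 18.5% of all genes.

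**Figure D4:**
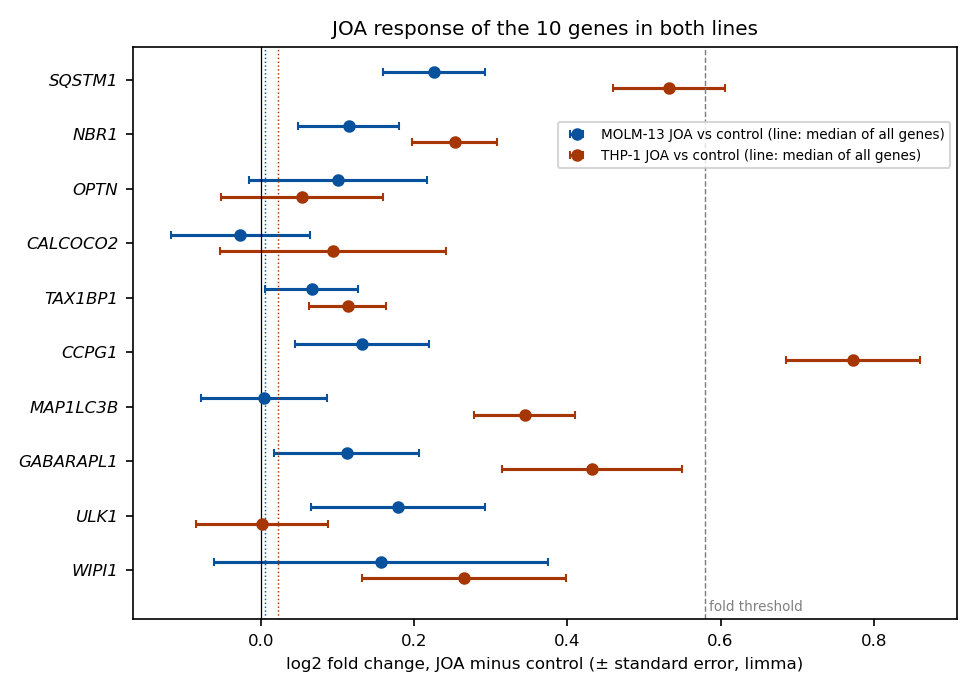
Log2 fold change after JOA (horizontal axis, log2(FPKM + 0.1) scale) with its standard error, in MOLM-13 (blue) and THP-1 (red) cells. Dotted lines mark the median of all genes in each line and the dashed line the fold threshold of 0.58. The THP-1 value exceeds the MOLM-13 value by more than the sum of both standard errors for CCPG1, SQSTM1, MAP1LC3B, GABARAPL1 and NBR1.

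Set side by side, the response of CCPG1 was larger in THP-1 than in MOLM-13 by 0.64 (SE 0.13) on the log2 scale. The difference was 0.34 (SE 0.11) for MAP1LC3B, 0.32 (SE 0.15) for GABARAPL1 and 0.31 (SE 0.10) for SQSTM1. For NBR1 it was 0.14 (SE 0.08), and for CALCOCO2, WIPI1 and TAX1BP1 it was 0.12 (SE 0.19), 0.11 (SE 0.26) and 0.05 (SE 0.07). The difference was below 0 for OPTN, at -0.05 (SE 0.15), and for ULK1, at -0.18 (SE 0.15). These differences contain the known THP-1 contrast and carry no p. Over all 12626 genes, limma called 0 for a difference between the lines at an adjusted p under 0.05, or 0%, and 6 with the block, or 0.0475%, while 914 had an unadjusted p under 0.05. Since THP-1 cells received 2 μM and MOLM-13 cells 0.5 μM, a difference of lines and one of doses cannot be told apart.

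The composition of the set also shifted. SQSTM1 made up 33.5 ± 0.127% of the summed level of the 5 ubiquitin-binding receptors in THP-1 controls and 40.0 ± 2.34% after JOA, and 37.3 ± 1.83% and 40.4 ± 1.63% in MOLM-13. The ratio of CCPG1 to NBR1 went from 1.21 ± 0.125 to 1.73 ± 0.178 in THP-1 and stood at 0.601 ± 0.0598 and 0.607 ± 0.00657 in MOLM-13. After JOA, SQSTM1 (42.4 ± 4.28 FPKM) and TAX1BP1 (39.7 ± 1.10 FPKM) overlapped at the top of the THP-1 order, and CCPG1 (18.3 ± 1.42 FPKM) was separate from both neighbours in the order, above MAP1LC3B (13.6 ± 0.960 FPKM). The order in MOLM-13 was the same before and after JOA. The ratio of MAP1LC3B to GABARAPL1 was 6.65 ± 0.375 and 6.17 ± 0.341 in THP-1, with overlapping ranges. Within each replicate number it was lower after JOA, at 6.68 and 6.23, 7.01 and 6.48, and 6.26 and 5.81.

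The genes most like SQSTM1 and CCPG1 over all 12 libraries, with values centred within each line, were taken from 9239 genes with a mean of at least 1 FPKM in both lines. PGD, an enzyme of the pentose phosphate pathway, followed SQSTM1 most closely (Pearson r 0.965), before BROX (0.958), MGAT1 (0.950), ITM2B (0.940) and ANKS3 (0.938). PGD had a log2 fold change after JOA of 0.50 in THP-1 and 0.22 in MOLM-13, close to the 0.53 and 0.23 of SQSTM1. The others had smaller ones. BROX gave 0.29 in THP-1 and 0.13 in MOLM-13, MGAT1 0.17 and 0.09, ITM2B 0.25 and 0.08, and ANKS3 0.26 and 0.19. For CCPG1, the list was MED29 (0.956), AFTPH (0.955), ASB13 (0.950), WDTC1 (0.948) and MRC2 (0.940). Their log2 fold changes after JOA in THP-1 were, in this order, 0.24, 0.20, 0.71, 0.29 and 0.50, against 0.77 for CCPG1. Within the set, SQSTM1 and CCPG1 correlated with r 0.889, SQSTM1 and GABARAPL1 with 0.902, and CCPG1 and MAP1LC3B with 0.901. With SQSTM1, NBR1 gave 0.868, TAX1BP1 0.754 and MAP1LC3B 0.749. OPTN (0.331 with SQSTM1), ULK1 (0.207) and CALCOCO2 (0.0963) were far lower. The same genes were also low with CCPG1, at 0.207 for OPTN, 0.295 for ULK1 and 0.146 for CALCOCO2. These coefficients describe 12 libraries that share the treatment and the scaling of each library, so no p is given. WIPI1 was below the minimum level in MOLM-13 and was not ranked.

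A further 78 autophagy genes, listed by their role, gave the surroundings of the set, and 76 of them passed the filter in each JOA comparison. The lists were drawn up with earlier results of these data known. The THP-1 values, their p-values included, are therefore again a description and not a test of these genes. In THP-1 cells limma called 0 of the 76, or of all 12712 genes the 0.134% given above, and 11 had an unadjusted p under 0.05, against 16.9% of all genes. The values of 19 were higher after JOA without overlap and those of 0 lower, or 25% of the 76 against 14.6% of all genes. Their median log2 fold change was 0.06. The largest value among the other receptors and adaptors was that of STBD1, a receptor for glycogen, at 0.51 (SE 0.09, limma adjusted p = 0.0719). TEX264, which like CCPG1 is a receptor for endoplasmic reticulum, gave 0.37 (SE 0.06, limma adjusted p = 0.0543). In the same direction were ATG4D, a protease that processes ATG8 proteins, at 0.33 (SE 0.06, limma adjusted p = 0.0698), and TFE3, a transcription factor for lysosomal and autophagy genes, at 0.35 (SE 0.09, limma adjusted p = 0.121). RAB7A, a GTPase of late endosomes, gave 0.16 (SE 0.05, limma adjusted p = 0.153). With the replicate block, the limma adjusted p was 0.0152 for TEX264, 0.0182 for STBD1, 0.0199 for ATG4D, 0.0203 for TFE3 and 0.0451 for RAB7A. All 5 genes lay below the fold threshold. An adjusted p under 0.05 with the block was found for 5 of the 76, a share no higher than the 8.06% of all 12712 genes. TEX264 was chosen after its values were seen. The other genes of its list tied to endoplasmic reticulum gave smaller values. They were 0.21 for RETREG3, 0.18 for RTN3, 0.17 for ATL3, 0.13 for SEC62 and 0.12 for CALCOCO1. RETREG1 gave 0.09, RETREG2 0.01 and CDK5RAP3 -0.03.

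The largest values in the remaining lists of THP-1 cells were as follows. MAP1LC3B2, of the ATG8 family, gave 0.28 (SE 0.29) with overlapping groups. RUBCN, a negative regulator in the class III PI3-kinase complex, gave 0.27. ZFYVE1, a marker of the sites where autophagosomes form, gave 0.28, and RB1CC1, the scaffold of the ULK complex, gave -0.03. The 4 tested genes of the ULK complex list had a median of 0.02, and 0 of them were separate between groups. ULK1 itself also overlapped. In MOLM-13 cells 0 of the 76 genes were called and 2 had an unadjusted p under 0.05, against 4.11% of all genes. The values of 4 were higher without overlap, or 5.26% against 5.1% of all genes, and the median was 0.02. The largest values there were 0.46 (SE 0.16) for MAP1LC3B2 and 0.30 (SE 0.10) for TFE3, both separate from control with a limma adjusted p of 1.00. Those of the other lists were 0.17 for FKBP8, 0.16 for ATG16L2, 0.14 for PLEKHM1, 0.12 for VMP1, -0.08 for PIK3R4 and -0.07 for ATG13.

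**Figure D5:**
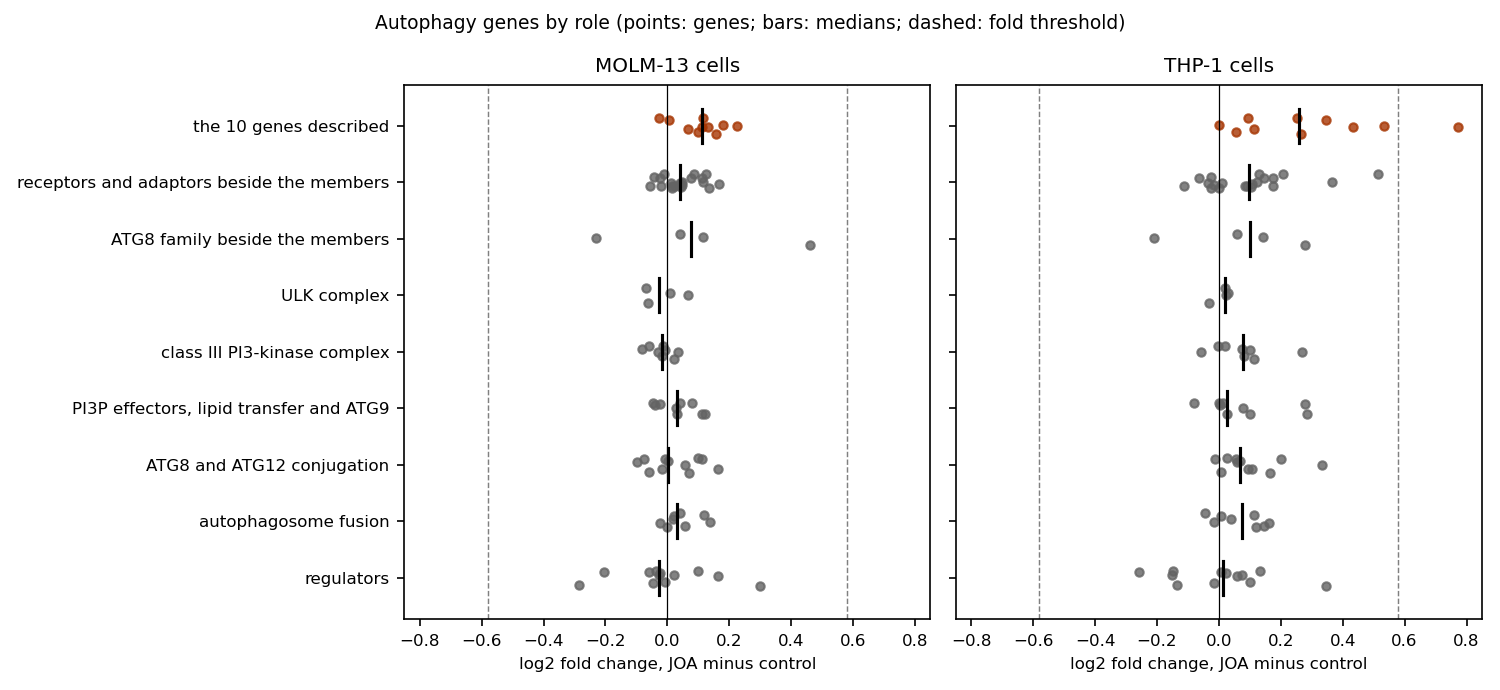
Log2 fold change after JOA (horizontal axis, log2(FPKM + 0.1) scale) of the 10 genes (red) and of 76 other autophagy genes (grey) by role, in MOLM-13 (left) and THP-1 (right) cells. Short vertical bars are list medians and dashed lines mark 0.58 in either direction. CCPG1 is the only point beyond the fold threshold in either panel.

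Between the untreated lines, 17 of 77 other autophagy genes were called, 7 higher in THP-1 and 10 lower, against 44% of all genes. The largest difference was in FUNDC1, a receptor of the outer mitochondrial membrane, with 5.76 ± 0.426 FPKM in MOLM-13 and 0.0361 FPKM, 0 and 0 in the 3 THP-1 controls. RETREG1 (FAM134B), a receptor for endoplasmic reticulum sheets, ran the other way, with 0.458 ± 0.0558 FPKM in THP-1 and a value above 0 in only 1 MOLM-13 control. The ATG8 gene MAP1LC3A had a log2 fold change of 1.92 (SE 0.29, limma adjusted p = 0.000472) and RB1CC1 one of -1.77 (SE 0.09, limma adjusted p = 6.78e-07). DDIT4, an inhibitor of mTORC1 signalling, gave -1.66 (SE 0.57, limma adjusted p = 0.0295) with overlapping values, since replicate 1 of the MOLM-13 controls stood at 9.24 FPKM beside 55.6 and 42.8 FPKM in the other two.

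Several of the genes share sequence or position with others, and their values are uncertain to that extent. MAP1LC3B2 had 584 of 597 aligned transcript bases identical to MAP1LC3B, and its row went from 1.14 ± 0.191 to 1.61 ± 0.248 FPKM with JOA in MOLM-13 and from 0.943 ± 0.387 to 1.11 ± 0.191 FPKM in THP-1. GABARAPL1 had 249 of 263 aligned bases in common with GABARAPL3, which was not analysed here. The exons of CCPG1 (15:55340032-55408510, minus strand, GRCh38) overlap those of a read-through transcript with DNAAF4, and DNAAF4 itself stood at 0.252 ± 0.0973 FPKM in THP-1 controls and 0.295 ± 0.0403 FPKM after JOA, far below CCPG1. SQSTM1 (5:179806398-179838078, plus strand) overlaps exons of MGAT4B and MRNIP on the opposite strand, whose log2 fold changes in THP-1 were 0.23 and 0.05. PIGB, on the strand opposite to CCPG1, gave 0.15. Likewise on opposite strands, JAZF1 (beside TAX1BP1) gave 0.10, FBXO31 (beside MAP1LC3B) 0.24 and ARSG (beside WIPI1) 0.26. The members themselves gave 0.11, 0.34 and 0.27. CCDC3, opposite to OPTN, was too low to be tested. In all, 7 such neighbours with a row overlapped exons of 6 of the genes described. The kit marks strand, but the strand setting of the counting is not given in the sources used here, and the part of these neighbours in the values was not tested.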

How the data were processed

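Total RNA of 12 libraries was sequenced as stranded mRNA with paired reads. The authors deposited 1 table of FPKM values per gene and library. Their notes list Trimmomatic, HISAT2, Cufflinks, HTSeq and the build hg38, without versions; the annotation is not given in the sources used here. The table held 20030 rows, 3488 of them at 0 in all libraries and 27 with a date in place of a gene symbol. Groups and replicate numbers came from the labels, and the doses are those given in the study's figure legends.

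FPKM values were used as deposited. Genes averaging 0.1 FPKM or more in the libraries of a fit were tested on log2(FPKM + 0.1) with limma 3.58.1 in R 4.3.3 (lmFit, eBayes with a trend), with Benjamini-Hochberg adjustment over all genes, and called where the adjusted p was under 0.05 and the log2 fold change reached 0.58 in size. The difference between the lines was called on the adjusted p alone. DESeq, which the authors used, needs counts. The procedure was run on simulated libraries with independent noise. The deviations shared by same-numbered libraries, described below, were not simulated, so that run does not test their effect. An exact permutation test of 3 against 3 libraries cannot go below p = 0.1 and was not used.

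Same-numbered control and JOA libraries deviated together within each line (r 0.360 to 0.529 in MOLM-13 and 0.263 to 0.510 in THP-1). Unlike numbers gave -0.419 to 0.0581. Deviations from a group's own mean cancel out within the group, so that range is not separate evidence of pairing. Pairing by number was used only in the replicate block and in comparisons within replicate numbers. All other standard errors and p-values come from the fit without the block. In THP-1 after JOA, the block lowered the SE from 0.09 to 0.05 for CCPG1 and from 0.15 to 0.05 for CALCOCO2. Across the lines, 2 of the 3 same-number correlations were under 0.1, at 0.0662 and 0.0787, so their numbers were not taken to pair. Relative depth came from the most common ratio, within 3%, of values under 0.1 FPKM.

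The members and gene lists were chosen with earlier results of these data known. The genes named were the members, genes with overlapping or similar sequence, the called genes of the autophagy lists (the 5 with the largest log2 fold change between the untreated lines), the gene with the largest change in each list after JOA, and the 5 genes most like SQSTM1 and CCPG1. Also named were TEX264 and the other genes of its list tied to endoplasmic reticulum. Loci are those of GENCODE release 29 on GRCh38, promoters are from RefSeq, and sequence work used Python 3.11.15. Protein sequences were not used here. Alternatives covered the pseudocount, the filter, rescaling, the replicate block and leaving out each library.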

Additional observations from a re-analysis of the deposited data

How the results depend on the processing

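Alternatives were pseudocounts of 1 and 0.01, a mean of at least 1 FPKM or any value above 0 in place of the filter, rescaling by median ratios, the replicate block and leaving out each library. In THP-1 cells the number of genes called after JOA was 17, and it was 8 with a pseudocount of 1, 0 with any value above 0, 161 with the replicate block and 0 to 1 without single libraries. The 10 genes described held 1 call there (CCPG1), which was lost with any value above 0 (0 calls) and without each of the 6 libraries (0 to 0 calls) while its log2 fold change stayed between 0.71 and 0.85. In MOLM-13 cells 0 genes were called, and 1 with any value above 0. For the difference between the lines, 0 genes were called, with 1 under a pseudocount of 1, 3 with any value above 0, 1 after rescaling and 6 with the replicate block. The cause of these changes was not tested.

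After JOA in MOLM-13, signs turned for 3 genes. MAP1LC3B had a log2 fold change of -0.000691 after rescaling and of -0.0494 to 0.0724 without single libraries. CALCOCO2 lay between -0.0960 and 0.0733 and WIPI1 between -0.000279 and 0.373 without single libraries. In THP-1, signs turned for ULK1 (-0.03 after rescaling, -0.05 to 0.07 without single libraries), CALCOCO2 (-0.04 to 0.21) and OPTN (-0.00385 to 0.09). The response differences of CALCOCO2 (-0.02 to 0.24), WIPI1 (-0.11 to 0.27) and OPTN (-0.13 to 8.96e-05) also took either sign without single libraries. Between the untreated lines, MAP1LC3B fell below the fold threshold with a pseudocount of 1 and without replicate 2 of either line. WIPI1 dropped out of the MOLM-13 and untreated comparisons with a minimum mean of 1 FPKM. The replicate block changed the call of none of the 10 genes. Total depth is unknown, and 3 libraries a group limit the precision. In MOLM-13 the standard errors after JOA ran from 0.06 for TAX1BP1 to 0.22 for WIPI1.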
